A study of Mus musculus with 6 samples.

Results

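The CXC chemokines are small secreted proteins named for the single residue between their first pair of cysteines. 9 of their genes, Cxcl1, Cxcl2, Cxcl3, Cxcl5, Cxcl9, Cxcl10, Cxcl12, Cxcl14 and Cxcl16, were followed by gene symbol in a count table of 54532 genes from cultured mouse macrophages. These were BMDMs, bone marrow-derived macrophages, which differentiate in the dish from marrow precursors. The XKO group carried Xbp1ΔMf, by its name a loss of Xbp1 in macrophages, and the XWT group carried the floxed, undeleted allele Xbp1FL/FL. The product of Xbp1 is a transcription factor that acts when unfolded protein builds up in the endoplasmic reticulum. Mice of both groups were C57BL/6 and 32 to 34 weeks old, and the cells of both were primed with lipopolysaccharide (LPS) and spent 48 h in wild-type hepatocyte-conditioned medium. All groups thus share LPS and hepatocyte products, and no untreated cells were analysed here. The driver of the deletion and whether the 3 libraries of a group came from separate animals are not given in the labels, and p-values here weigh a difference against the spread of these libraries only, which may be technical.

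CXC chemokines steer leukocytes through G protein-coupled receptors. Those with a glutamate-leucine-arginine (ELR) motif before the first cysteine, here Cxcl1, Cxcl2, Cxcl3 and Cxcl5, attract neutrophils through CXCR2, and macrophages make several of them after LPS through NF-kB. Those without the motif act on other cells: CXCL9 and CXCL10 are interferon-induced ligands of CXCR3 on T cells, CXCL12 is a stromal ligand of CXCR4, and CXCL16 is made as a membrane protein that binds CXCR6 and oxidised lipoprotein.

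The libraries held 28354866 to 30891729 counts, with XKO libraries between 29965384 and 30184033. Xbp1 itself stood at 76.8, 79.4 and 76.5 CPM (counts relative to the TMM-scaled library size) in XKO 1 to 3, against 159, 157 and 132 CPM in XWT 1 to 3. All XKO libraries lay below all XWT libraries. The count covers the whole gene, so it checks the labels in part only. XWT 3 stood apart from the other XWT libraries on the first principal component (18.2 against 36.9 and 38.6, with XKO libraries at -33.8 to -29.2), so each member's difference is given with and without it. All 9 macrophage markers were detected. The lysozyme gene Lyz2 was the 1 called lower in XKO (log2 fold change -1.13), and 7 were lower without XWT 3. Of 4 tested endothelial markers, Pecam1 was called lower (log2 fold change -0.54), a call that ended without XKO 2. Kdr (0.42), Cdh5 (0.27) and Vwf (0.13) had log2 fold changes in the other direction and were not called. T, B and NK cell markers summed to 0.325 to 0.419 CPM in XKO and 0.0742 to 0.416 CPM in XWT. Hepatocyte markers had no count in any library, which allows at most 0.0960 to 0.111 CPM a library (3 counts).

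Of the 9 chemokines, 3 were higher in XKO, 1 was lower, 4 did not pass the test and Cxcl5 had too few counts to be tested (edgeR quasi-likelihood test, adjusted p under 0.05 over 14333 tested genes). The 3 that rose were all ELR chemokines, and the 1 that fell was the stromal chemokine Cxcl12. Among all tested genes 6.00% were called higher and 7.99% lower. Only 0.760% of all tested genes were called and at least 2-fold higher, a size that Cxcl1, Cxcl2 and Cxcl3 each reached, and 2.60% were called and at least 2-fold lower, as Cxcl12 was. XKO and XWT libraries were fully separated in 4 of the 8 tested members and in 36.2% of all tested genes. The median log2 fold change of the 8 was 0.0050 and that of all tested genes was 0.0014, so the list as a whole had no common direction. The genes were chosen with earlier results of these data known, and these counts are a description.

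**Figure D1:**
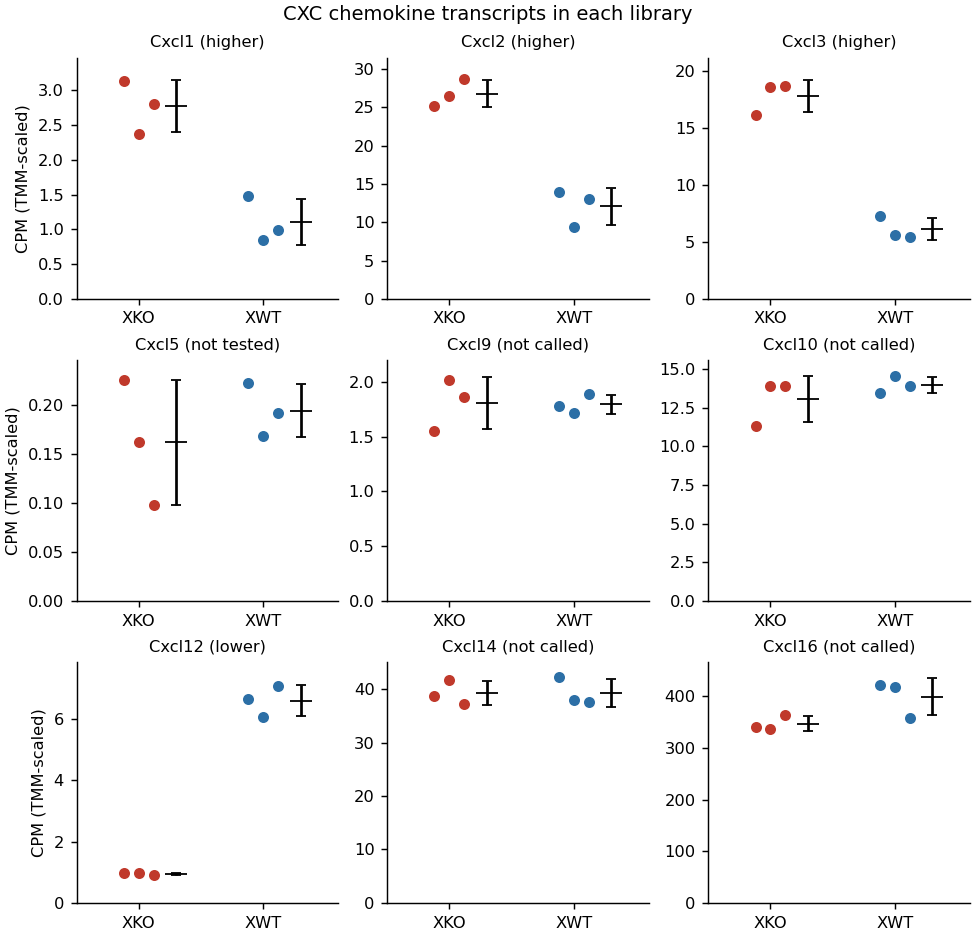
Level of each CXC chemokine as CPM in every library (points, XKO left of XWT, each panel with its own axis from 0), with the group mean and SD beside the points (n = 3). Cxcl1, Cxcl2 and Cxcl3 were higher in all XKO libraries than in any XWT library and Cxcl12 was lower, whereas the groups overlapped for the other members.

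Among the ELR chemokines, Cxcl3 had the largest difference. Cxcl3 (ENSMUSG00000029379, chromosome 5, 90786103 to 90789600, plus strand) stood at 16.1, 18.6 and 18.6 CPM in XKO 1 to 3, against 7.24, 5.62 and 5.44 CPM in XWT 1 to 3. Every XKO library lay more than 2-fold above every XWT library. On the log2 scale this was a difference of 1.55 (standard error, SE, 0.13), or a 2.92-fold higher level (adjusted p = 1.91e-06), and without XWT 3 it was 1.47.

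Cxcl2 (ENSMUSG00000058427, chromosome 5, 90903871 to 90905938, plus strand), the mouse chemokine also called MIP-2, stood at 25.2, 26.5 and 28.7 CPM in XKO, against 13.9, 9.33 and 13.03 CPM in XWT. XWT 2 was the lowest library and the groups did not overlap. Cxcl2 rose by 1.15 on the log2 scale (SE 0.13, adjusted p = 4.42e-05), or 2.22-fold, and it was 1.21 without XWT 3. Cxcl1 (ENSMUSG00000029380, chromosome 5, 90891241 to 90893115, plus strand), the mouse chemokine also called KC, was scarcer, with 97, 73 and 86 counts in XKO 1 to 3, against 40, 25 and 31 counts in XWT 1 to 3. In CPM these are 3.13, 2.37 and 2.81 in XKO and 1.48, 0.842 and 0.992 in XWT, again without overlap. The log2 fold change was 1.33 (SE 0.25, adjusted p = 0.00354), or 2.51-fold, and 1.26 without XWT 3. Its SE was larger than that of Cxcl2, which had 277 to 878 counts a library. The intervals of the 3 differences overlapped (95% intervals 1.27 to 1.82 for Cxcl3, 0.79 to 1.87 for Cxcl1 and 0.88 to 1.42 for Cxcl2). In these bulk samples more cells that make a transcript and more RNA per cell cannot be told apart.

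The fourth ELR gene, Cxcl5 (ENSMUSG00000029371, chromosome 5, 90759360 to 90761624, plus strand), also known as LIX and in tissues a product of epithelial and stromal cells, had 7, 5 and 3 counts in XKO, against 6, 5 and 6 counts in XWT. At this depth Cxcl5 did not pass the filter on low counts, and a small difference would not have been seen. Without the filter on low counts its log2 fold change was -0.26 with an SE of 0.76.

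The 3 ELR genes that rose share a stretch of promoter sequence, shown here because they moved together. RefSeq promoter windows (GRCm38.p6, 250 bases before to 50 after the start) matched 7 of the 9 members. Cxcl5 and Cxcl16 had no window, so whether the ELR gene Cxcl5 has this stretch was not examined. The stretches below are the 150 bases before the RefSeq start site on the plus strand, chr5:90785951-90786100 for Cxcl3, chr5:90891095-90891244 for Cxcl1 and chr5:90903749-90903898 for Cxcl2, and capitals mark matches to the NF-kB consensus on either strand.
Cxcl3: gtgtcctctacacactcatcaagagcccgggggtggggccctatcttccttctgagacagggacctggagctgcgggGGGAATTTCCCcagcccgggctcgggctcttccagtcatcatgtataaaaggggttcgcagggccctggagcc
Cxcl1: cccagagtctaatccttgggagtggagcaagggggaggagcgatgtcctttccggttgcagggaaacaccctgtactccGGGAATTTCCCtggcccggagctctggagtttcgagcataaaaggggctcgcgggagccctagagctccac
Cxcl2: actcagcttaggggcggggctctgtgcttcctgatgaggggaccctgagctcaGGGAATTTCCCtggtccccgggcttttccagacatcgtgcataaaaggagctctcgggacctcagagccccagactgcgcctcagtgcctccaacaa
The capitals spell the same 11 bases, GGGAATTTCCC, in all 3 genes, and the match on one strand overlaps that on the other. They lie 73 to 63 bases before the RefSeq start in Cxcl3, 71 to 61 in Cxcl1 and 97 to 87 in Cxcl2. The gene start in the count table is 90891241 for Cxcl1 and 90903871 for Cxcl2. Both lie within the printed stretches, whose last bases there belong to the gene as annotated. The distances thus depend on the start used, most in Cxcl2. These 11 letters were chosen after the windows were read, as the NF-kB match common to the 3 genes that rose. Their presence in these 3 was thus fixed by the choice. The 11 letters were found in 14 of 32851 windows of all genes (0.0426%), those of the 3 genes included. Aligned on the 11 bases without gaps, from 20 bases before to 40 after, 18 of 71 bases were the same in all 3 promoters. The 11 are part of these 18. Without gaps, sequence shifted by an insertion or deletion counts as different, so this is not a measure of how related the promoters are. The NF-kB consensus in its looser form was found in 4 of the 7 windows, the fourth being Cxcl10, and in 8.46% of all windows. Of motifs linked to the unfolded protein response, TGACGTGG was in 0 of the 7 windows (0.676% of all), TGATGNAA in 0 (3.97% of all), and ACGTG in Cxcl1 and Cxcl3 (19.6% of all). The AP-1 motif TGANTCA was in Cxcl9 and Cxcl10 (7.81% of all), the C/EBP motif TTGCNNAA in 0 of the 7 (10.8% of all) and TATAAA in Cxcl3 and Cxcl9 (13.6% of all). All motifs were searched on both strands. A match is a description of the letters and not a sign of binding.

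The followed members on chromosome 5 lie in a pair of clusters, and the genes that rose lie in the first. From Cxcl5 to Cxcl2 it holds, in order, Cxcl5, Ppbp, Pf4, Cxcl3, Cxcl15, Cxcl1 and Cxcl2. Cxcl3 lies 102 kb from Cxcl1, which is 10.8 kb from Cxcl2. Between Cxcl5 and Cxcl3, Pf4, the platelet factor gene, was at 51.7 ± 1.8 CPM in XKO and 49.2 ± 2.5 CPM in XWT (SD, n = 3 each), with a log2 fold change of 0.07 (SE 0.070). Its neighbour Ppbp, which encodes a further ELR chemokine of platelets, was at 0.747 ± 0.15 CPM in XKO and 0.623 ± 0.17 CPM in XWT (SD, n = 3 each) and did not pass the test. The tested genes called in this cluster were therefore Cxcl1, Cxcl2 and Cxcl3, and Mthfd2l beyond Cxcl2 was not called (log2 fold change 0.18). In the second cluster, 1415 kb away, Cxcl9 and Cxcl10 were not called. Sdad1 beside Cxcl9 was called higher (log2 fold change 0.27, adjusted p = 0.048), and Uso1, Naaa, Nup54 and Scarb2 were not called.

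**Figure D2:**
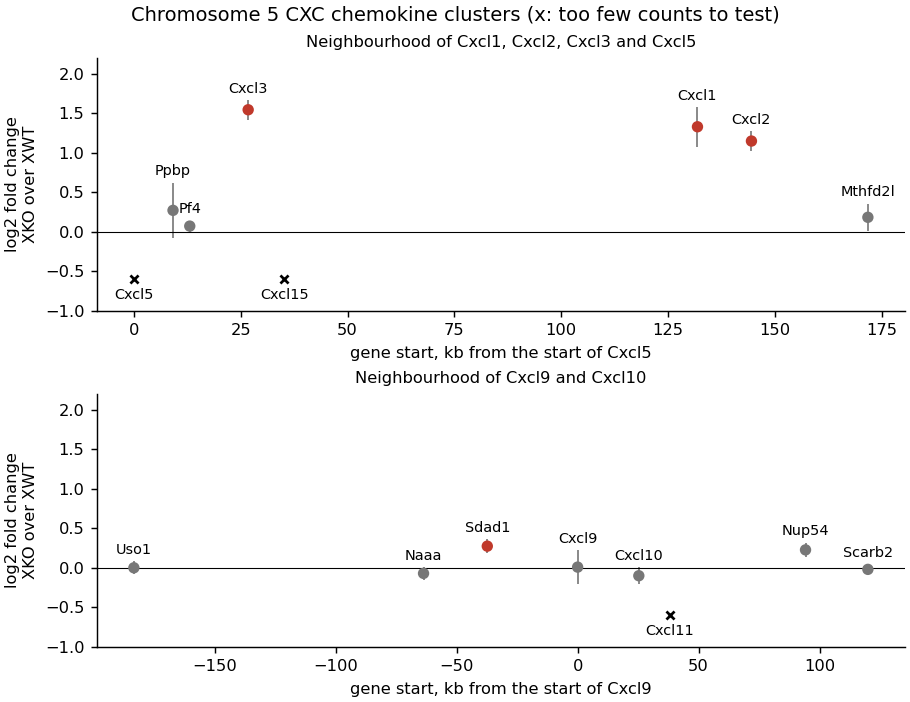
Log2 fold change of XKO over XWT (points, bars ± SE) of the tested genes within 150 kb of the chromosome 5 chemokine clusters, by distance of the gene start from the start of Cxcl5 or Cxcl9. Red points, Sdad1 among them, were called higher and grey points were not called. Crosses mark chemokine genes with too few counts to test, placed at an arbitrary height. Cxcl1, Cxcl2 and Cxcl3 stand above 1, and Pf4, Cxcl9 and Cxcl10 lie near 0. Ppbp, at 0.27 with an SE of 0.35, was not called.

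The interferon-linked chemokines did not pass the test. Cxcl10 (ENSMUSG00000034855, chromosome 5, 92346638 to 92348889, minus strand) stood at 11.3, 13.9 and 13.9 CPM in XKO, against 13.5, 14.5 and 13.9 CPM in XWT. The groups overlapped, with XKO 1 the lowest library. The log2 fold change was -0.10 (SE 0.11, adjusted p = 0.556), with a 95% interval of -0.33 to 0.13. Cxcl9 (ENSMUSG00000029417, chromosome 5, 92321347 to 92328079, minus strand) stood at 1.55, 2.02 and 1.86 CPM in XKO, against 1.78, 1.72 and 1.89 CPM in XWT. Its log2 fold change was 0.0089 (SE 0.22, adjusted p = 0.983). With 48 to 62 counts a library, its interval of -0.46 to 0.48 was wide and leaves room for a difference of up to that size. A rise as large as that of Cxcl2 lies outside the intervals of both genes.

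The Cxcl10 promoter is shown beside this result because it also holds the NF-kB consensus. The 220 bases before its RefSeq start, chr5:92348890-92349109 on the minus strand, have in capitals the match to the interferon response element core, GAAA and GAAA with any 2 bases between, nearest the left end, and then the NF-kB matches.
Cxcl10: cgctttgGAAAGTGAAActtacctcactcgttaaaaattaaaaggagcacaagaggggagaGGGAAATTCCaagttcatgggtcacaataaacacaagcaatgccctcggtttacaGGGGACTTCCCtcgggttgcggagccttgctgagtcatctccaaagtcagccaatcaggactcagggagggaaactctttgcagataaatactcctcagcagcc
The first NF-kB match lies 159 to 150 bases before the start and overlapping matches follow at 104 to 94. The interferon element core was found in Cxcl10 and Cxcl14 among the 7 windows and in 3.44% of all windows. The gamma-interferon element TTCNNNGAA was in Cxcl14 alone of the 7 and in 8.30% of all. So an NF-kB match stood in the windows of the 3 genes that rose and in that of Cxcl10, which did not pass the test.

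Cxcl12 was the single member that fell, and by more than any rise. Cxcl12 (ENSMUSG00000061353, chromosome 6, 117168535 to 117181367, plus strand) had 30, 30 and 28 counts in XKO 1 to 3, or 0.967, 0.976 and 0.914 CPM. In XWT 1 to 3 it had 179, 180 and 221 counts, or 6.64, 6.06 and 7.08 CPM. The groups lay far apart. Cxcl12 had a log2 fold change of -2.79 (SE 0.18, adjusted p = 1.66e-07), a 6.90-fold lower level, and -2.73 without XWT 3.

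CXCL12 is mainly a product of stromal cells, and the stromal and fibroblast markers moved in the same libraries. All 11 tested of the 13 markers were called lower, and the summed level of the 13 was 67.8 to 82.6 CPM in XKO, against 730 to 842 CPM in XWT. The defining markers Lum and Thy1 were near 0 in both groups, Dcn was at 0.195 ± 0.14 CPM in XKO and 1.14 ± 0.33 CPM in XWT, and Pdgfra was at 0.0974 ± 0.032 CPM in XKO and 1.86 ± 0.44 CPM in XWT (SD, n = 3 each). Their part in the difference of Cxcl12 was not tested. By root mean square difference of centred log2 CPM over the 6 libraries, the profiles most like that of Cxcl12 among 9444 genes were those of Fbn1 (0.13), the fibrillin gene of elastic fibres, and Postn (0.19), which is itself on the marker list. Fbn1 averaged 3.54 CPM in XKO and 24.4 CPM in XWT, and its log2 fold change was -2.79, as for Cxcl12. The measure includes the difference between the groups, so a gene with a like log2 fold change comes out near a called member.

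**Figure D3:**
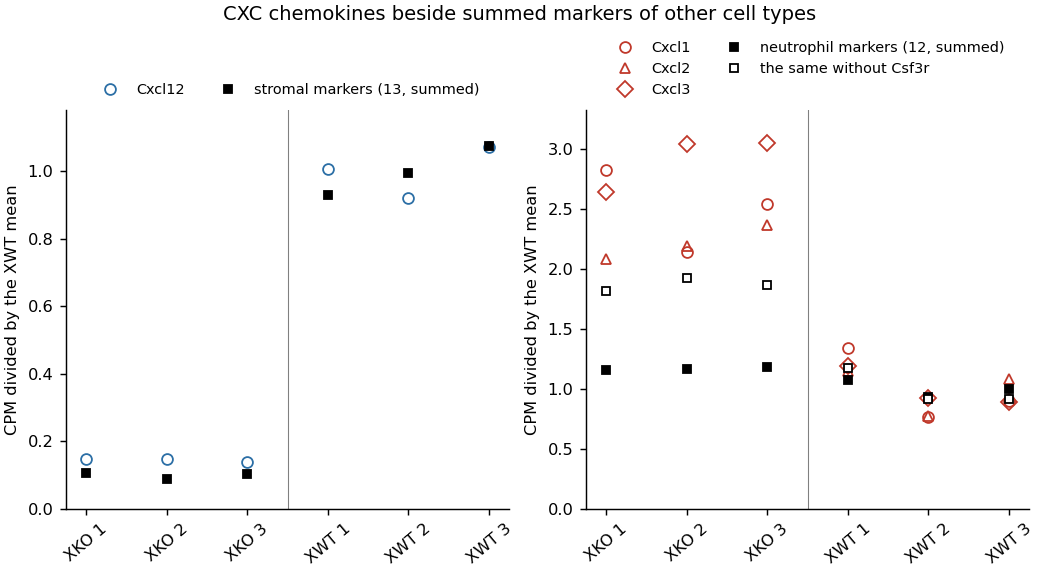
CPM of Cxcl12 beside the summed stromal markers (left) and of Cxcl1, Cxcl2 and Cxcl3 beside the summed neutrophil markers (right), each divided by its mean in the XWT libraries, for XKO 1 to 3 and then XWT 1 to 3. Cxcl12 and the stromal sum were both low in all XKO libraries, and the open squares show the neutrophil sum without Csf3r, which is the most abundant gene of that list.

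For the ELR genes that rose, neutrophil markers moved in the same libraries. Of the 12 markers 9 were tested, 7 were called higher (S100a8, S100a9, Ltf, Lcn2, Camp, Ngp and Mmp8, with log2 fold changes of 0.78 to 1.54) and 0 lower, and the summed level of the 12 was 172 to 176 CPM in XKO, against 139 to 159 CPM in XWT. Csf3r, which macrophages also express, made up most of that sum and did not pass the test. Without it the sum was 61.5 to 65.2 CPM in XKO, against 30.9 to 39.9 CPM in XWT. The defining marker Ly6g had no count in any library, which allows at most 0.0960 to 0.111 CPM, and Cxcr2, the receptor of these chemokines, had 2 to 5 counts a library in XKO and 0 to 2 in XWT. The part of these markers in the rise of the ELR genes was not tested. The profiles most like Cxcl3 were those of Dio2 (0.12), a deiodinase gene, and Cd24a (0.17). For Cxcl2 they were Slc7a11 (0.11), the cystine transporter gene, and Csf1 (0.12), the macrophage growth factor gene, and for Cxcl1 the receptor gene Met (0.19) and Lyz1 (0.19), which has a near-identical copy in Lyz2.

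Cxcl16 and Cxcl14 were the most abundant members and did not pass the test. Cxcl16 (ENSMUSG00000018920, chromosome 11, 70453983 to 70459984, minus strand) stood at 341, 336 and 363 CPM in XKO, against 422, 418 and 359 CPM in XWT. XWT 1 and XWT 2 lay above all XKO libraries, while XWT 3 lay within their range. The log2 fold change was -0.20 (SE 0.075, adjusted p = 0.0843), with a 95% interval of -0.36 to -0.04. Without XWT 3 it was -0.28 and passed the test (adjusted p = 0.00357, with a range of 0.00357 to 0.290 over all alternatives). Cxcl16 overlaps the oppositely oriented gene Zmynd15, with which 16.9% of its 50-base stretches are shared, and whether the counting used strand is not given in the labels. Zmynd15 was at 41.6 ± 2.1 CPM in XKO and 33.2 ± 4.5 CPM in XWT (SD, n = 3 each; log2 fold change 0.32, adjusted p = 0.0362). If the counting did not use strand, reads of the overlap cannot be told apart between this pair. The call of Zmynd15 ended without any 1 library other than XWT 3.

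Cxcl14 (ENSMUSG00000021508, chromosome 13, 56288643 to 56296551, minus strand), a chemokine better known from epithelia, stood at 38.8, 41.7 and 37.3 CPM in XKO, against 42.2, 38.0 and 37.5 CPM in XWT. The groups overlapped throughout. The log2 fold change was 0.0011 (SE 0.077, adjusted p = 0.994), and its 95% interval of -0.17 to 0.17 was the second narrowest of the 8 members after that of Cxcl16.

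**Figure D4:**
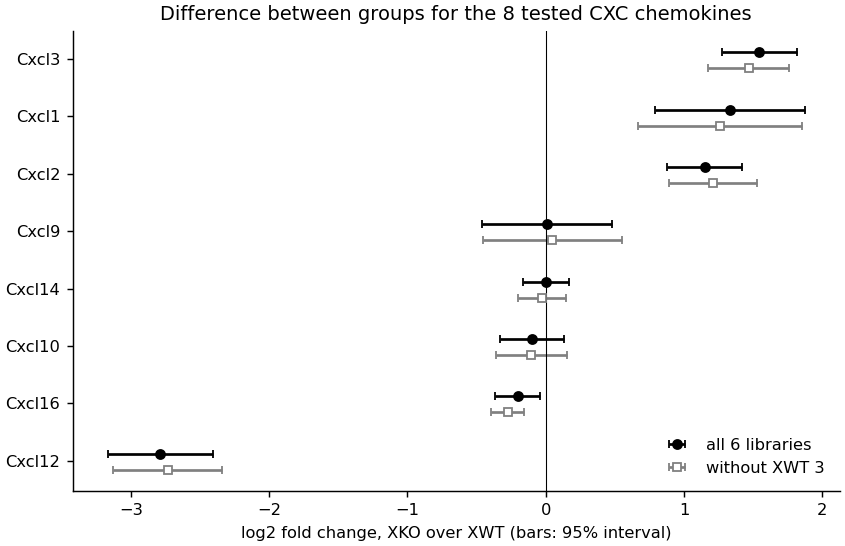
Log2 fold change of XKO over XWT with its 95% interval for the 8 tested CXC chemokines, from all 6 libraries (filled circles) and without XWT 3 (open squares). Cxcl1, Cxcl2 and Cxcl3 lie to the right of 0 and Cxcl12 to the left in both fits, and the interval of Cxcl16 lies further from 0 without XWT 3.

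Levels were compared between genes per length, in FPKM (fragments per kilobase of gene and per library size) as the authors deposited it. In XKO the order from high to low was Cxcl16, Cxcl14, Cxcl2, Cxcl10, Cxcl3, Cxcl1, Cxcl9, Cxcl12 and Cxcl5. In XWT it was Cxcl16, Cxcl14, Cxcl10, Cxcl2, Cxcl3, Cxcl12, Cxcl9, Cxcl1 and Cxcl5. Cxcl16 led with 114 ± 4.7 FPKM in XKO and 132 ± 12 FPKM in XWT (SD, n = 3 each), followed by Cxcl14 with 21.4 ± 1.2 FPKM in XKO and 21.4 ± 1.5 FPKM in XWT. Cxcl2 stood at 12.9 ± 0.84 FPKM in XKO, more than 2-fold above Cxcl10 at 5.76 ± 0.66 FPKM, whereas in XWT the library ranges of Cxcl2 (5.83 ± 1.2 FPKM) and Cxcl10 (6.19 ± 0.25 FPKM) overlapped (SD, n = 3 each). Overlapping neighbours were, besides, Cxcl10 and Cxcl3, and Cxcl12 and Cxcl5, in XKO, and Cxcl9 and Cxcl1 in XWT. Cxcl12 was thus near the level of Cxcl5 in XKO, at 0.116 ± 0.0041 against 0.0865 ± 0.034 FPKM, and above Cxcl9 in XWT, at 0.805 ± 0.058 against 0.594 ± 0.025 FPKM (SD, n = 3 each).

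Among the 9 followed members, the ELR genes took a larger share in XKO. Other CXC chemokine genes are not part of these shares or of the order above. Pf4, for 1, stood at 71.3 ± 2.4 FPKM in XKO and 68.1 ± 3.7 FPKM in XWT (SD, n = 3 each). Of the counts of all 9 members, the 4 ELR genes held 10.2%, 10.8% and 10.7% in XKO 1 to 3, against 4.49%, 3.23% and 4.48% in XWT 1 to 3. Cxcl16 held 77.8%, 76.0% and 77.7% in XKO, against 82.9%, 84.6% and 81.8% in XWT. Neither pair of groups overlapped. These shares are counts unscaled for length and are tied to each other, since a larger share of some members lowers that of the rest.

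**Figure D5:**
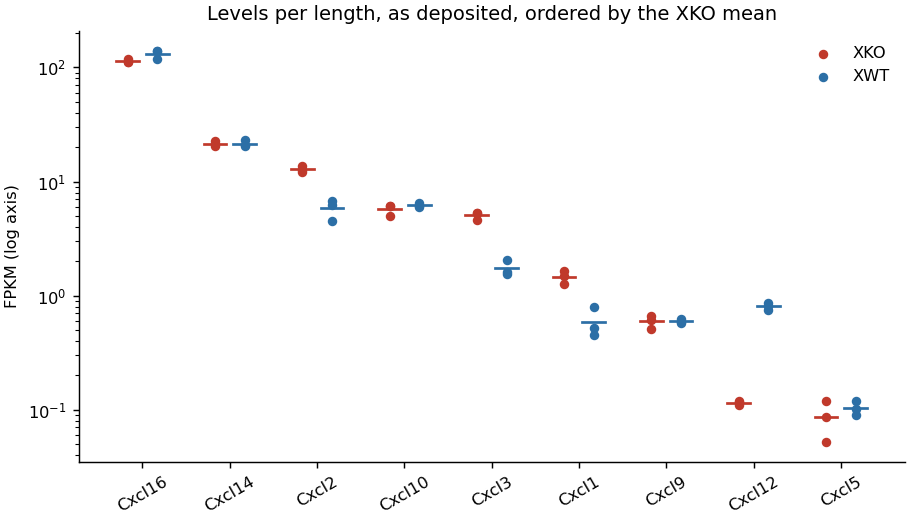
FPKM on a log axis of the 9 CXC chemokines in each library (points, XKO left of XWT) with group means (lines), ordered by the XKO mean. Cxcl16 is the highest and Cxcl5 the lowest in both groups, and Cxcl12 lies near Cxcl5 in XKO and near Cxcl9 in XWT.

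Many other genes of the CXC system were too scarce to test. Of 8 other chemokine genes 3 were tested, and Cx3cl1, the membrane-bound fractalkine gene, was called lower, with 0.702 ± 0.29 CPM in XKO and 2.42 ± 0.21 CPM in XWT (SD, n = 3 each; log2 fold change -1.78, SE 0.29, adjusted p = 0.00131). Cxcl11, Cxcl13, Cxcl15, Cxcl17 and Xcl1 had 0 to 5 counts a library. Of the 8 receptor genes 2 were tested. Cxcr4, the receptor of CXCL12, was at 121 ± 8.0 CPM in XKO and 109 ± 7.3 CPM in XWT (SD, n = 3 each) and did not pass the test (adjusted p = 0.192). Cxcr3, the receptor of CXCL9 and CXCL10, was called lower, at 6.56 ± 0.58 CPM in XKO and 9.52 ± 1.4 CPM in XWT (SD, n = 3 each; log2 fold change -0.54, adjusted p = 0.0220), a call that ended without any 1 library other than XWT 3. Among 7 genes of proteases that shed or trim these chemokines 6 were tested, 1 was higher and 1 lower. Mmp8, a collagenase gene and also a neutrophil marker, had a log2 fold change of 0.78 (adjusted p = 0.000437) and the gelatinase gene Mmp2 one of -1.30 (adjusted p = 9.82e-06), while Adam10 and Adam17, which shed CXCL16, were not called.

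Across 3 lists of genes that act upstream of the chemokines, some were called higher and some lower, beside 14.0% of all tested genes called in either direction. Of 13 tested NF-kB subunit and inhibitor genes 1 was called higher and 0 lower, with a median log2 fold change of -0.05. The called gene was Rel, the c-Rel subunit, at 79.6 ± 2.1 CPM in XKO and 65.9 ± 4.5 CPM in XWT (SD, n = 3 each; log2 fold change 0.27, adjusted p = 0.0200), and its call ended without any 1 XKO library. With library size alone 3 of the 13 were higher, and 3 were lower when XWT 3 was left out. Of 9 tested genes that control the stability of chemokine RNA, 2 were higher and 1 lower. Zc3h12c, of the regnase family of ribonucleases, was at 89.9 ± 2.3 CPM in XKO and 52.8 ± 3.2 CPM in XWT (SD, n = 3 each; log2 fold change 0.77, adjusted p = 5.12e-06). Zfp36l1, which binds AU-rich elements and promotes decay, was at 37.9 ± 1.3 CPM in XKO and 68.4 ± 1.4 CPM in XWT (SD, n = 3 each; log2 fold change -0.85, adjusted p = 1.31e-06). Elavl1, which binds and stabilises such RNA, had a log2 fold change of 0.23 (adjusted p = 0.0427) and was not called without any 1 library other than XWT 3. Of 14 tested genes of interferon signalling 1 was higher and 2 lower: Jak2 (log2 fold change 0.24), Ifngr1 (-0.26) and Irf8 (-0.25), and each call ended without any 1 library other than XWT 3.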

How the data were processed

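RNA was sequenced from 6 samples of mouse BMDMs, 3 XKO and 3 XWT, grouped by their titles. Trizol RNA and a NEBNext Ultra kit were used, per the labels' protocols. Bowtie 0.12.2 and the builds mm10 and mm8 are named, without their roles, per the submitters' processing notes. No source used here gives the counting program or strand setting. All 9 members had the same coordinates in GENCODE M21 (GRCm38).

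The authors deposited 1 table. Raw counts per gene ID are whole numbers, per the file headers. The deposited FPKM values, scaled between libraries, were used for levels only. Group means (a signal of scaled counts), log2 fold changes and the p-value of each gene, raw and adjusted, were also deposited by the authors, from a tool that no source used here names.

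Counts were tested with edgeR 4.0.16 in R 4.3.3: filterByExpr kept 14333 of 54532 genes (8 of the 9 members), libraries were TMM-scaled, and a robust quasi-likelihood fit without a block compared XKO with XWT. Benjamini-Hochberg adjustment ran over all tested genes, with calls under 0.05. SE was taken as log2 fold change over root F, and 95% intervals use the moderated degrees of freedom. At these depths a gene with few counts carries counting error beside the spread between libraries, and intervals and floors of 3 counts cover no other error. Pairs of replicates differed by more than sampling noise, with a chi-square per gene of 2.80 to 4.54 between XKO libraries and 19.3 to 21.7 between XWT libraries, so none was merged, and the fit gives both groups the same dispersion.

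The members and lists were chosen with earlier results of these data known. All members are described, with the called members of the context lists and, for each called member, the 2 genes of at least 5 CPM with the smallest root mean square difference. Motifs were searched on both strands of RefSeq windows of GRCm38.p6, and sharing was counted over 50-base stretches of GENCODE M21 transcripts. Alternatives were other scaling, filters and thresholds, DESeq2 1.42.0, limma-voom (limma 3.58.1) with and without quality weights, a replicate block and leaving out each library. The authors' deposited table, and all alternatives for the context lists, were added after the data were seen. Some members of the context lists are not reported here. The scripts were tested on simulated data.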

Additional observations from a re-analysis of the deposited data

How the results depend on the processing

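The count of 3 CXC chemokines higher in XKO was the same under all 17 alternatives. The count of 1 lower became 2, by the addition of Cxcl16, with no filter, with limma-voom and quality weights, with a threshold of 0.10 and without XWT 3, and stayed at 1 under the other 13. The log2 fold changes ranged over the alternatives from 1.17 to 1.59 for Cxcl1, from 0.99 to 1.26 for Cxcl2, from 1.47 to 1.68 for Cxcl3 and from -2.85 to -2.72 for Cxcl12, and each remained called. For Cxcl16 the range was -0.28 to -0.13. Cxcl9, Cxcl10 and Cxcl14 were called under none, and the sign of Cxcl9 and Cxcl14 varied. The order of levels kept all 18 ranks with CPM per kilobase in place of FPKM. In the authors' deposited table the log2 fold changes were 1.33 for Cxcl1, 1.14 for Cxcl2, 1.54 for Cxcl3 and -2.80 for Cxcl12.

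Over all genes, 860 were higher and 1145 lower. Lower genes were 749 with library size alone (60.7% of calls higher, against 42.9% with TMM), a scaling that moved the median of all genes to 0.07. At a threshold of 0.01 there were 262 higher and 544 lower genes, and at 0.10 there were 1452 higher. Leaving out 1 library gave 3 members higher each time, 1 to 2 lower, 274 to 2073 genes higher and 532 to 2164 lower, the highest counts being those without XWT 3. The replicate block gave 3 members higher and 1 lower, and 1068 genes higher and 1127 lower. Same-numbered libraries did not deviate together (correlations of -0.04, -0.04 and -0.05). With deviations centred within 3 libraries a group, these correlations cannot show whether same-numbered samples were handled together.

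Cxcl5, with 3 to 7 counts a library, and Cxcl9, with 48 to 62, are limited by depth.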

Other observations

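Ratios between members, in FPKM per library, were set beside each other for pairs of members. Cxcl2 stood at 2.65, 2.41 and 2.61 times Cxcl3 in XKO 1 to 3, against 3.25, 2.81 and 4.05 times in XWT 1 to 3, with no overlap. With 3 libraries a group this difference was not tested. Cxcl2 stood at 7.31, 10.1 and 9.26 times Cxcl1 in XKO, against 8.50, 10.05 and 11.9 times in XWT, and Cxcl10 at 9.79, 9.22 and 10.01 times Cxcl9 in XKO, against 10.1, 11.3 and 9.87 times in XWT, both with overlap. Cxcl2 and Cxcl3 share 126 of their 50-base transcript stretches (5.84% of those of Cxcl2), and how reads of these stretches were assigned was not tested, while Cxcl1 shares 0 with any other gene.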
